A study of Mus musculus with 18 samples.

Results

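The interferon response genes examined here are 58 of the 20259 genes measured in mouse quadriceps muscle. They were taken by symbol, as the single-gene rows whose names belong to the Stat, Irf, Ifi, Ifit, Ifitm, Isg, Oas and Gbp series, together with Ifih1, Mx1, Mx2, Rsad2, Usp18, Bst2 and Xaf1. Where a gene had several rows, as 7 did, its brightest row on average represented it. A few of the names carry no interferon role that is known with certainty, and 24 rows shared by several symbols were not used. By role the genes were 6 STAT and 8 IRF transcription factors, 8 RNA sensors and OAS proteins, 12 antiviral effectors and members of the ISG15 system, 6 IFITM proteins, 6 guanylate-binding proteins and 12 further genes named Ifi.

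Interferons are secreted proteins, and those of type I are released by cells that sense foreign or misplaced nucleic acid. Type I interferons act through the receptor chains Ifnar1 and Ifnar2 and interferon gamma acts through Ifngr1 and Ifngr2, and the attached JAK kinases then phosphorylate STAT proteins. The STAT and IRF proteins bind short promoter elements, the interferon-stimulated response element (ISRE) and the gamma-activated site (GAS), and switch on genes whose products block viral entry, sense or degrade RNA, and process antigen. Many of these genes are also active in macrophages, which enter skeletal muscle when fibers are damaged.

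RNA came from the quadriceps of 10-week-old male mice kept on a C57BL/6 background, with 3 biological replicates and so 3 Affymetrix Mouse Exon 1.0 ST arrays in each of 6 groups. The groups were wt mice, Dysf-/- mice, which lack the membrane repair protein dysferlin, F66 mice, F66;Dysf-/- mice, and wt and Dysf-/- mice that received ACVR2B/Fc. F66 is a transgene that drives follistatin (Fst), a secreted inhibitor of myostatin and related ligands, from the myosin light chain promoter. It lies on the Y chromosome, and the F66 and F66;Dysf-/- males came from crosses of Dysf+/- parents. ACVR2B/Fc is a soluble decoy, made from the extracellular portion of activin receptor type IIB and an immunoglobulin Fc tail, that traps the same ligands. It was injected into the peritoneum 4 times at weekly intervals from week 6, at 10 mg/kg or 200 µg each time. The other 4 groups were labeled as untreated. Whether they received a vehicle is not given in the sources used here.

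The labels were checked first against the targeted gene and the transgene. Dysf measured 8.62, 8.48 and 8.55 (log2 units) on the wt arrays and 6.76, 6.90 and 6.87 on the Dysf-/- arrays, and it lay between 6.76 and 6.92 in F66;Dysf-/- mice and between 6.95 and 7.10 in injected Dysf-/- mice. Fst lay between 5.92 and 6.33 in F66 mice and between 6.12 and 6.38 in F66;Dysf-/- mice, against 5.57 and 5.79 in wt and 5.58 and 5.85 in Dysf-/- mice. No array went against its label. Array medians ran from 5.27 to 5.45, the lowest correlation between any pair of arrays was 0.954, and the mean level of 5 muscle fiber markers stayed between 11.82 and 12.06 on all 18 arrays. In these bulk samples, a change in the number of cells that express a gene and a change in its RNA per cell cannot be told apart.

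Across the 6 groups, 44 of the 58 genes differed by limma's moderated F test at an adjusted p under 0.05, against 49.2% of all genes tested. The F66;Dysf-/- group stood out. Its group mean was the highest of the 6 in 37 of the 58 genes, where the same held for 21.1% of all genes, and in 31 of them all 3 F66;Dysf-/- arrays lay above all 15 other arrays, against 11.7% of all genes. The median of the 58 genes was 7.12, 7.10 and 7.15 on the F66;Dysf-/- arrays and lay between 6.57 and 6.80 on the other 15. The F66 group, with the same transgene and intact dysferlin, had the lowest mean of the 6 in 20 genes. The wt group had it in 15 and the injected wt group in 10, and the shares over all genes were not counted. In 8 genes, Bst2, Gbp7, Irf1, Mx2, Oas1b, Rsad2, Stat2 and Xaf1, all 3 F66 arrays lay below the other 15, as was true of 1.51% of all genes.

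**Figure D1:**
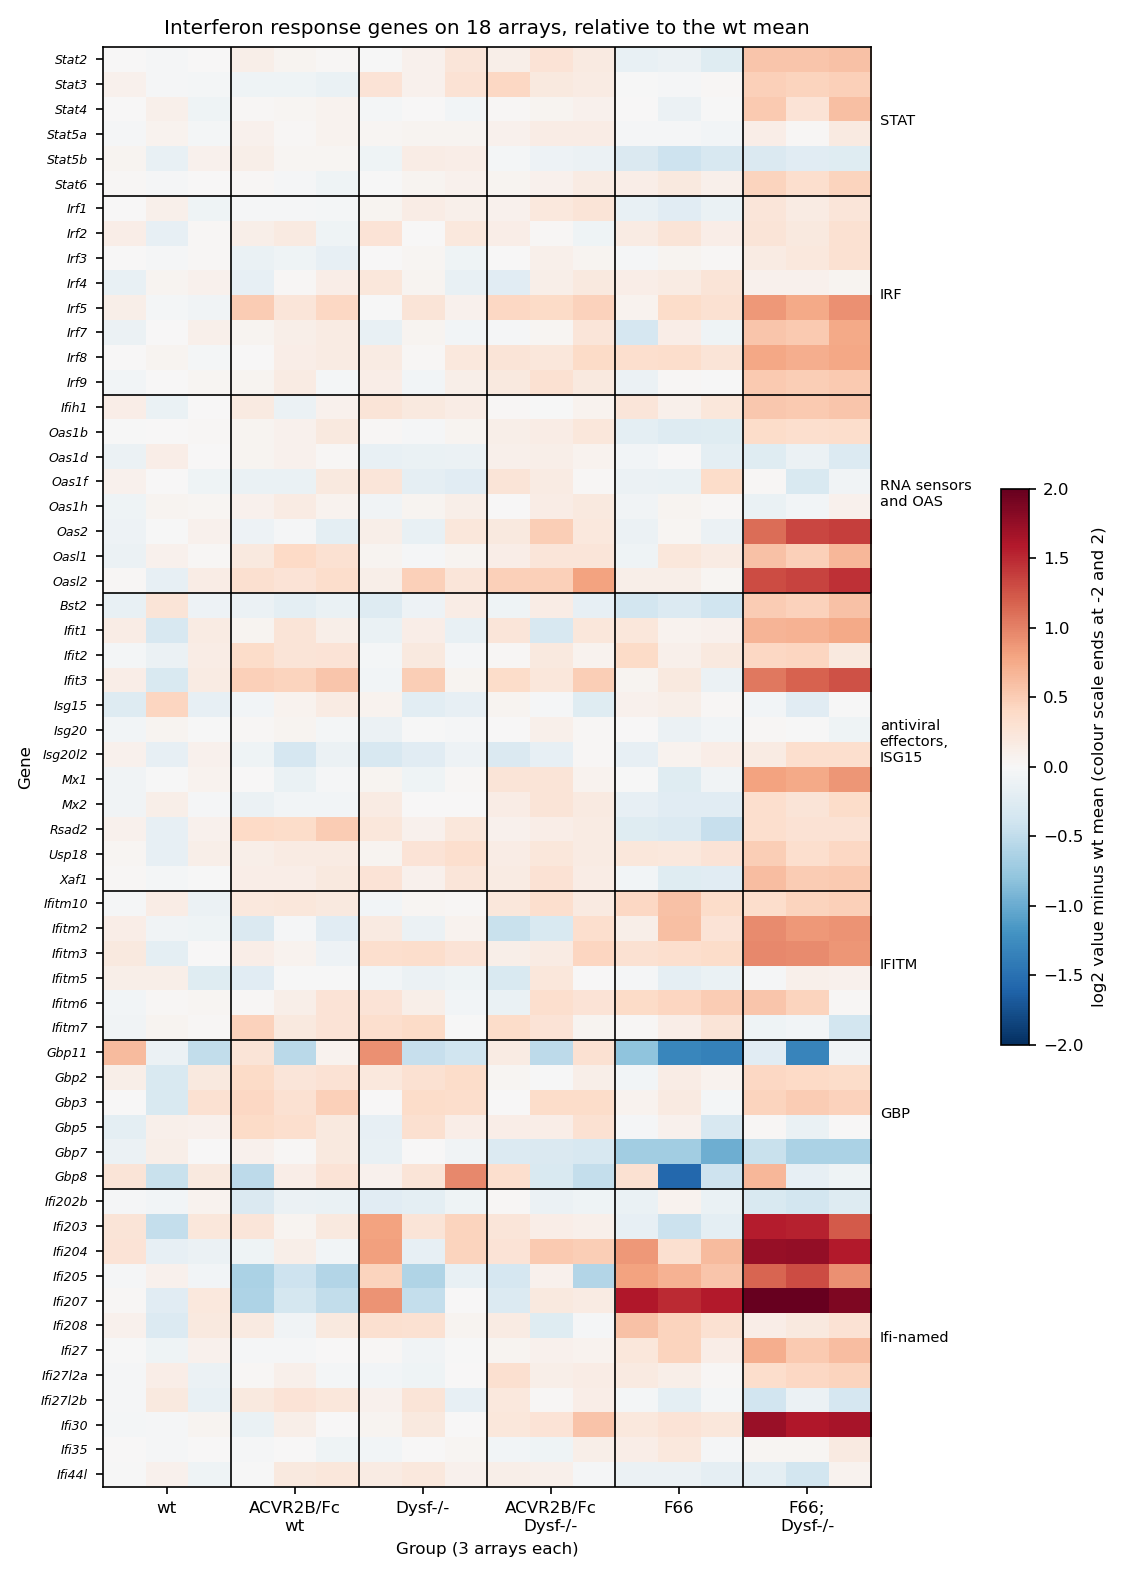
Log2 value of each of the 58 genes (rows, grouped by role) on each of the 18 arrays (columns, 3 per group), as the difference from that gene's wt mean, red for higher and blue for lower. The F66;Dysf-/- columns are the reddest in most roles, whereas the lower values of Gbp7 appear in both F66 groups.

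Promoter sequence was read from RefSeq for 45 of the 58 genes (mouse assembly GRCm38.p6, from 250 bases before to 50 after each annotated start). The ISRE core, GAAA followed after any 2 bases by GAAA and sought on both strands, occurred in 18 of the 45 genes (40%) and in 3.99% of all 27025 genes with a window. The palindromic GAS core TTCNNNGAA occurred in 12 (26.7%), against 9.55% of all genes, and 5 genes held both. All 4 guanylate-binding protein genes with a window held an ISRE core, as did 4 of 8 antiviral effectors and 4 of 8 genes named Ifi, but only 1 of 8 IRF genes. A match is a description of the letters and not evidence of binding.

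The 250 bases before the start are printed for 5 genes with an ISRE core, with ISRE and GAS core matches in capitals. Ifi203 and Ifit3 are shown because they were among the genes with the largest differences between F66;Dysf-/- and F66 muscle, and Bst2, Rsad2 and Gbp7 because they were lower in F66 than in wt muscle. All read 5′ to 3′ on the strand of the gene.
Ifi203 (chr1:173942493-173942742, minus strand): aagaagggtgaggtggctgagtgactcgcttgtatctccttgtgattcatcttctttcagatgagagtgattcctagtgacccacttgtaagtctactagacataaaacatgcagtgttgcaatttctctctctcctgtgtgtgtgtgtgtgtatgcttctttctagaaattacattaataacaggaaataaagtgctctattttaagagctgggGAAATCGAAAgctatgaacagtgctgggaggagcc
Ifit3 (chr19:34583279-34583528, plus strand): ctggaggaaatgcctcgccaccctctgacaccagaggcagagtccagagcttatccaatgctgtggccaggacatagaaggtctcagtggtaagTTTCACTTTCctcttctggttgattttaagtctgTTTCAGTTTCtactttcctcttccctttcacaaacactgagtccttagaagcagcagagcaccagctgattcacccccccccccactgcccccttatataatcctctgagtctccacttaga
Bst2 (chr8:71537473-71537722, minus strand): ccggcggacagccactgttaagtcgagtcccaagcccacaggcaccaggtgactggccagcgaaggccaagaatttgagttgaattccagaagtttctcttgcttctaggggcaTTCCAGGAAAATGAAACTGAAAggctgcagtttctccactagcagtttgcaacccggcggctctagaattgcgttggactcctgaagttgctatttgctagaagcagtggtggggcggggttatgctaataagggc
Rsad2 (chr12:26456453-26456702, minus strand): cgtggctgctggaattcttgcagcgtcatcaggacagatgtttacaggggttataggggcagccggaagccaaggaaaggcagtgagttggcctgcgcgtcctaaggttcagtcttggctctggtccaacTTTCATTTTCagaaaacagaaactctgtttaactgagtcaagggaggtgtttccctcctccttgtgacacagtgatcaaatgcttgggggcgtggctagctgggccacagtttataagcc
Gbp7 (chr3:142530086-142530335, plus strand): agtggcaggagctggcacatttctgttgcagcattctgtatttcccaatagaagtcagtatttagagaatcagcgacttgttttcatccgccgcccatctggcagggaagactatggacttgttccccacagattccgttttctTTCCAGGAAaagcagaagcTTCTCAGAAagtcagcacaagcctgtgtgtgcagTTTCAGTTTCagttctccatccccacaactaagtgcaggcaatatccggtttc
In Bst2 a GAS core and a pair of ISRE cores overlap one another, so that the capitals form 1 run. In Gbp7 the capitals mark 2 GAS cores followed by 1 ISRE core, in Ifit3 they mark 2 ISRE cores, and in Ifi203 and Rsad2 they mark 1 ISRE core each.

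**Figure D2:**
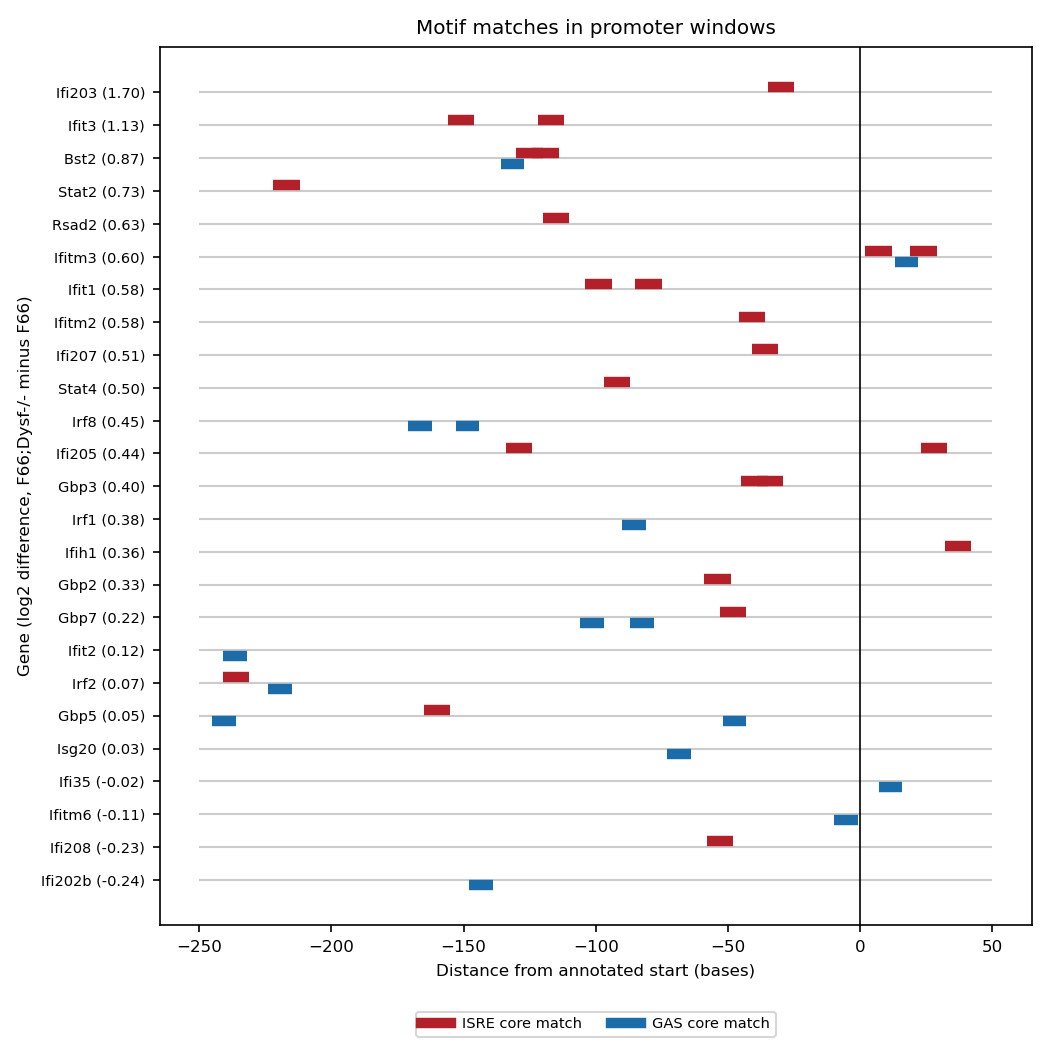
Positions of ISRE core (red) and GAS core (blue) matches from 250 bases before to 50 bases after the annotated start, for the 25 genes with at least 1 match, ordered by the log2 difference between F66;Dysf-/- and F66 muscle given in parentheses. Genes with ISRE matches are found from the top (Ifi203, 1.70) to near the bottom (Ifi208, -0.23) of the order.

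Among the 18 genes with an ISRE core, 12 were higher and 0 lower in F66;Dysf-/- than in F66 muscle, with a median log2 difference of 0.50. Among the 27 genes with a window but no ISRE core, 13 were higher and 1 was lower, with a median of 0.16. The corresponding medians against Dysf-/- muscle were 0.48 and 0.23. Of all genes, 14.5% were higher and 20.3% lower in F66;Dysf-/- than in F66 muscle. The counts with and without an ISRE core describe the genes and were not tested against each other.

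The transgene was first compared with its own control in muscle without dysferlin. In F66;Dysf-/- against Dysf-/- muscle, 32 of the 58 genes rose and 5 fell at an adjusted p under 0.05 (limma, adjusted over all genes), where 15.2% of all genes rose and 18.4% fell. The median log2 difference of the 58 genes was 0.28, and that of all genes was -0.09. The increases were mostly moderate, and 7 genes at least doubled: Ifi207, Ifi30, Ifi204, Ifi205, Oas2, Oasl2 and Ifit3. Of the 37 calls, 32 were kept whichever of the 18 arrays was left out, and Ifi27l2b, Ifi44l, Ifit2, Ifitm7 and Stat3 were each lost without at least 1 array. With arrays centered on their medians, 34 rose and 2 fell, with the lower calls of Ifi27l2b, Ifi44l and Ifitm7 lost. Macrophage markers moved with these genes, for the mean level of 10 of them went from between 6.49 and 6.75 in Dysf-/- to between 8.37 and 8.48 in F66;Dysf-/- muscle, and the part of macrophage number in the interferon gene values was not tested.

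The same transgene in muscle with dysferlin gave a mixed picture. In F66 against wt muscle, 9 genes rose and 6 fell, where 8.11% of all genes rose and 5.5% fell, and the median log2 difference was 0.03. Ifi204, Ifi205, Ifi207, Ifi208, Ifi27, Ifitm3, Ifitm6, Ifitm10 and Irf8 rose, and Bst2, Gbp7, Mx2, Oas1b, Rsad2 and Stat5b fell. With median-centered arrays the split was 12 higher and 3 lower, the calls of Bst2, Mx2 and Rsad2 were lost, and Ifi30, Stat6 and Usp18 were gained. Only 8 genes were called without wt replicate 2, without F66 replicate 2 or without F66 replicate 3. The calls of Gbp7, Ifi207, Ifitm10, Irf8, Oas1b and Stat5b were kept whichever array was left out.

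**Figure D3:**
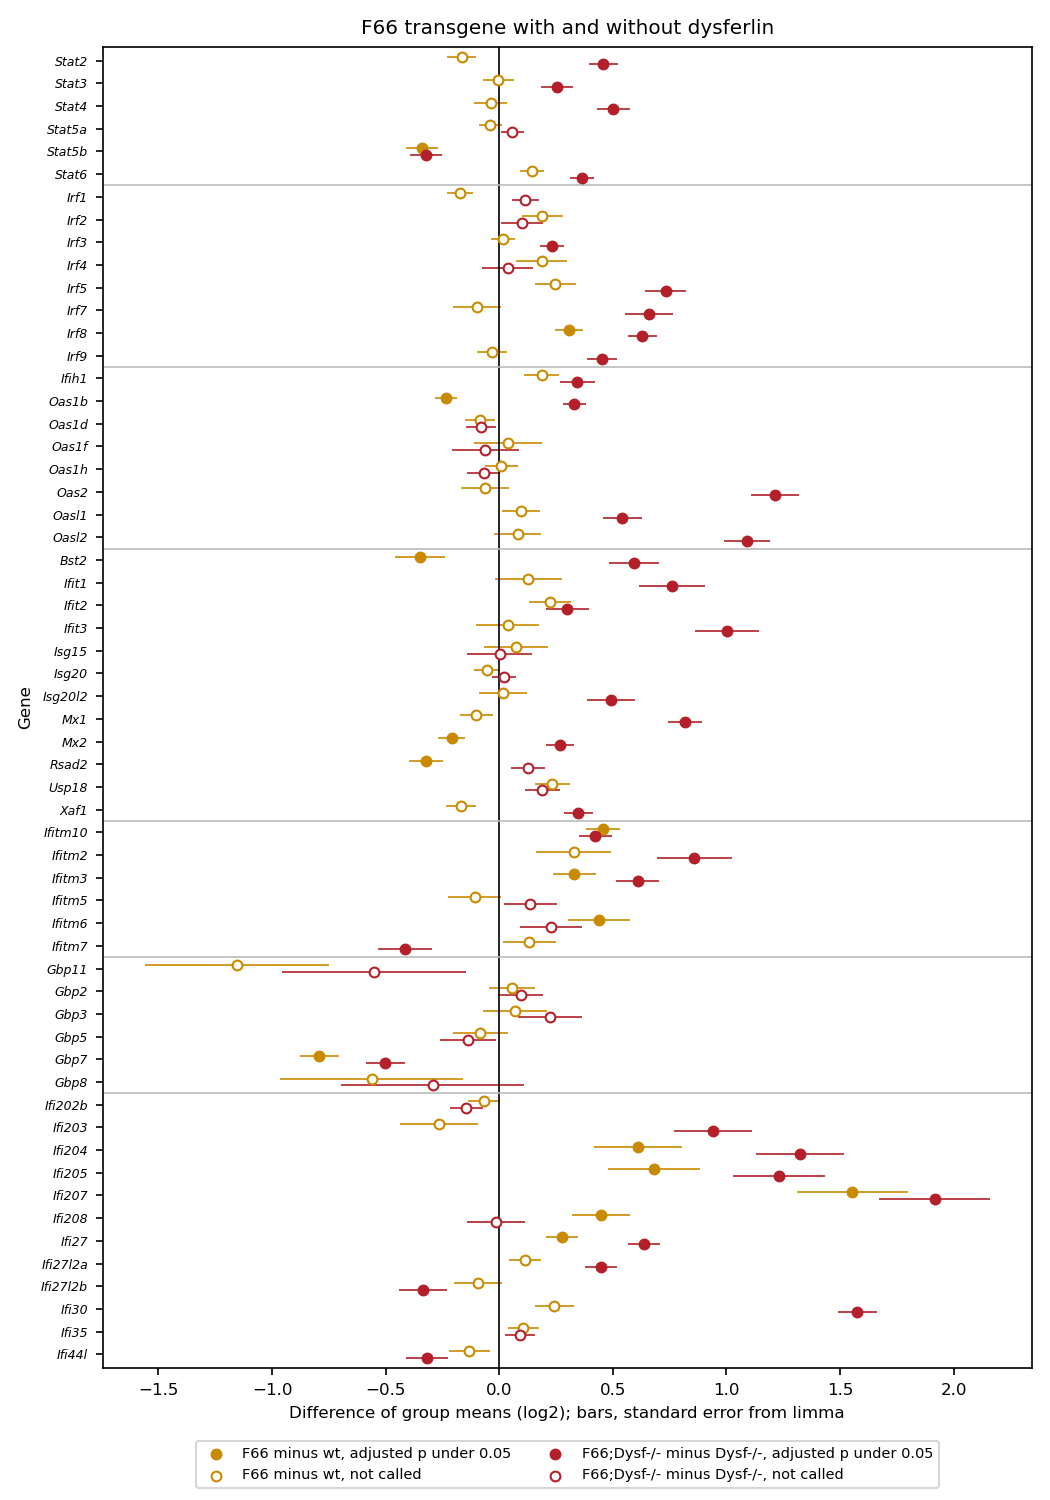
Difference of group means (log2, horizontal axis) for each gene, F66 minus wt in yellow and F66;Dysf-/- minus Dysf-/- in red, with the standard error from limma. Filled points have an adjusted p under 0.05. Red points lie to the right of yellow ones in most rows, for example at 1.21 and -0.06 for Oas2, while for Stat5b they lie at -0.32 and -0.34.

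The difference between these transgene effects was itself tested. Effects were compared with their signs, so a higher effect can be a larger rise, a smaller fall or a change of direction. The F66 effect was higher without dysferlin in 23 genes and lower in 1, where 8.54% of all genes were called higher and 7.93% lower. The 1 gene with the lower effect was Ifitm7, which fell without dysferlin and was not called with it. Rsad2, among the higher ones, fell with dysferlin and was not called without it. The largest differences were those of Ifi30, Oas2, Ifi203 and Oasl2. When each of the 18 arrays was left out in turn the count lay between 19 and 25, and 17 of the 24 calls were kept throughout. Those lost at least once were Ifi27, Ifi27l2a, Ifit1, Ifitm7, Irf1, Irf8 and Isg20l2. In F66;Dysf-/- against F66 muscle, which shares its arrays with both preceding comparisons, 32 genes were higher and 1, Ifi202b, was lower, where 14.5% of all genes were higher and 20.3% lower.

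Among the transcription factors, Stat2 joins Irf9 in the complex that binds the ISRE after type I interferon. Stat2 measured 6.76, 6.72 and 6.76 in wt and 6.60, 6.64 and 6.50 in F66 muscle, against 6.74, 6.84 and 6.99 in Dysf-/- and 7.31, 7.30 and 7.33 in F66;Dysf-/- muscle. The F66 arrays were thus the lowest and the F66;Dysf-/- arrays the highest of all 18. The log2 difference between F66;Dysf-/- and Dysf-/- muscle was 0.46 ± 0.0631 (SE, adjusted p = 3.8e-05), that between F66 and wt was -0.17 ± 0.0631 (SE, adjusted p = 0.0979) and did not pass, and the F66 effects differed by 0.62 ± 0.0892 (SE, adjusted p = 0.000188).

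Irf9, the DNA-binding partner of Stat2, measured 7.12, 7.09 and 7.13 in F66;Dysf-/- muscle and lay between 6.49 and 6.91 on the other 15 arrays. It rose by 0.45 ± 0.066 (SE, adjusted p = 6.64e-05) over Dysf-/- and did not pass in F66 against wt (-0.03). Both partners were thus higher with the transgene and without dysferlin, and the F66 effect on Irf9 also differed between backgrounds (0.48, adjusted p = 0.0021).

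The other STAT genes divided. Stat4, which transmits interleukin-12 signals, rose by 0.50 over Dysf-/- muscle, Stat6, which transmits interleukin-4 and interleukin-13 signals, by 0.36, and Stat3, which serves the interleukin-6 family, by 0.25, the last of these being lost without Dysf-/- replicate 2. The Stat4 row was dim, with a mean of 3.88. Stat5b, which transmits growth hormone signals in muscle, moved the other way and to a like extent with either genotype. It measured 9.18, 8.98 and 9.22 in wt and 8.84, 8.71 and 8.81 in F66 muscle and 9.05, 9.28 and 9.26 in Dysf-/- and 8.84, 8.90 and 8.88 in F66;Dysf-/- muscle, with no overlap in either pair. It fell by 0.34 in F66 (adjusted p = 0.0049, limma) and by 0.32 in F66;Dysf-/- muscle (adjusted p = 0.00263), and the difference between these effects was 0.02 ± 0.102 (SE, adjusted p = 0.94). Its neighbor on chromosome 11, Stat5a, did not pass in either comparison (-0.04 and 0.06) and was called only against F66 (0.15, lost without any of 5 of the 6 arrays compared).

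In the IRF family 5 of 8 genes rose in F66;Dysf-/- over Dysf-/- muscle, where 15.2% of all genes rose. Irf5, an inducer of inflammatory cytokines in macrophages, rose by 0.73 ± 0.0906 (SE, adjusted p = 1.28e-05) and Irf8, which directs the development of myeloid cells, by 0.63 ± 0.0635 (SE, adjusted p = 1.54e-06). Irf8 was also the 1 member of the family that rose in F66 over wt muscle, from 6.34, 6.39 and 6.30 to 6.67, 6.69 and 6.60, a log2 difference of 0.31 ± 0.0635 (SE, adjusted p = 0.00415). Without dysferlin it went from 6.50, 6.37 and 6.55 to 7.11, 7.07 and 7.12, and the difference between the effects (0.32, adjusted p = 0.0217) was lost without Dysf-/- replicate 2, F66 replicate 3 or F66;Dysf-/- replicate 1.

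Irf7, the factor that amplifies type I interferon production and is itself induced by it, measured 6.03, 6.23 and 6.13 in Dysf-/- and 6.73, 6.70 and 6.94 in F66;Dysf-/- muscle. It rose by 0.66 ± 0.107 (SE, adjusted p = 0.000182) there, and its difference of -0.10 between F66 and wt did not pass. A second, dimmer Irf7 row went the other way, at -0.54 against Dysf-/-, and with averaged rows the difference was 0.06 and the calls of Irf7, that of the difference between F66 effects included (0.22 in place of 0.76), were lost. Irf3, its constitutive relative, rose by a smaller 0.23 ± 0.0526 (SE, adjusted p = 0.00295).

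Irf1, an activator induced by interferon gamma, was low in F66 muscle at 6.00, 5.93 and 6.02, below every other array, and measured 6.39, 6.31 and 6.39 in F66;Dysf-/- muscle. It was not called against its own control in either background (-0.17 and 0.12), but the F66 effects differed by 0.29 ± 0.0827 (SE, adjusted p = 0.0259), a call lost without any of 5 arrays, Dysf-/- replicate 1, F66 replicate 2, F66;Dysf-/- replicates 1 and 3 and wt replicate 2. Irf2, an antagonist of Irf1, and Irf4, a factor of lymphocytes, did not differ among the 6 groups (adjusted p of 0.126 and 0.616, limma F test). Further, dimmer rows of Irf4 disagreed, at 0.36 and -0.45 in F66;Dysf-/- against Dysf-/- muscle, where the row taken gave 0.04. With averaged rows this difference was -0.02 and not called.

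The OAS proteins make short oligoadenylates on double-stranded RNA that activate an RNase, and Oas2 and Oasl2 were among the most changed of the 58 genes. Oas2 measured 6.19, 6.28 and 6.38 in wt, 6.17, 6.33 and 6.18 in F66, 6.41, 6.14 and 6.52 in Dysf-/- and 7.40, 7.63 and 7.68 in F66;Dysf-/- muscle. Wild-type and F66 arrays overlapped, whereas every F66;Dysf-/- array was above all others. The increase over Dysf-/- was 1.21 ± 0.106 (SE, adjusted p = 3.09e-07), which is 2.32-fold, and the F66 effects differed by 1.28 ± 0.15 (SE, adjusted p = 3.26e-05).

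Oasl2 measured 6.13, 5.94 and 6.25 in wt, 6.21, 6.21 and 6.14 in F66, 6.22, 6.58 and 6.34 in Dysf-/- and 7.40, 7.45 and 7.56 in F66;Dysf-/- muscle, and rose by 1.09 ± 0.102 (SE, adjusted p = 6.84e-07) over Dysf-/-. Its relative Oasl1 rose by 0.54 and Ifih1, the MDA5 sensor of long double-stranded RNA, by 0.34. In F66 against wt muscle none of these 4 genes passed.

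Oas1b moved in opposite directions in the 2 backgrounds. It measured 6.43, 6.44 and 6.46 in wt and 6.25, 6.18 and 6.19 in F66 muscle, and 6.46, 6.42 and 6.49 in Dysf-/- and 6.80, 6.77 and 6.79 in F66;Dysf-/- muscle, with no overlap in either pair. It fell by 0.23 with the transgene in wt (adjusted p = 0.00509, limma) and rose by 0.33 ± 0.0499 (SE, adjusted p = 9.32e-05) without dysferlin, and the effects differed by 0.57 ± 0.0706 (SE, adjusted p = 5.92e-05). The related Oas1d, Oas1f and Oas1h, whose probes were dim, passed in neither comparison. All 7 genes of the family lie on chromosome 5, and their sequence similarity means that signal can be shared between rows.

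Among the antiviral effectors, 8 of 12 rose in F66;Dysf-/- over Dysf-/- muscle and none fell, where 15.2% of all genes rose and 18.4% fell. Ifit3, which belongs to a family that binds viral RNA, measured 8.28, 7.84 and 8.30 in wt, 8.19, 8.33 and 8.02 in F66, 8.08, 8.63 and 8.20 in Dysf-/- and 9.19, 9.32 and 9.41 in F66;Dysf-/- muscle. It rose by 1.00 ± 0.14 (SE, adjusted p = 4.36e-05), a doubling, with the F66;Dysf-/- arrays above all others. Its neighbors on chromosome 19 rose less, Ifit1 by 0.76 ± 0.147 (SE, adjusted p = 0.000834) and Ifit2 by 0.30 ± 0.0944 (SE, adjusted p = 0.0229), and the call of Ifit2 was lost without any of 4 arrays, Dysf-/- replicates 1 and 3 and F66;Dysf-/- replicates 1 and 2.

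Mx1, which encodes a dynamin-like GTPase that blocks influenza virus and is carried in an inactive form by C57BL/6 mice, measured 4.65, 4.52 and 4.63 in Dysf-/- and 5.41, 5.35 and 5.49 in F66;Dysf-/- muscle, against 4.36 to 4.67 on the wt and F66 arrays. It rose by 0.82 ± 0.0733 (SE, adjusted p = 4.22e-07). The adjacent Mx2 rose by 0.27 ± 0.061 (SE, adjusted p = 0.00313) without dysferlin and fell by 0.21 with it (adjusted p = 0.0324, limma), where F66 arrays measured 4.55, 4.48 and 4.49 and wt arrays 4.64, 4.82 and 4.69. The Mx2 decrease was lost without wt replicate 2 or 3, without F66 replicate 2 or 3 and with median-centered arrays.

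Bst2, the tetherin that holds budding virus at the cell surface, measured 7.22, 7.62 and 7.27 in wt and 7.01, 7.09 and 6.97 in F66 muscle, and 7.11, 7.27 and 7.52 in Dysf-/- and 7.88, 7.83 and 7.96 in F66;Dysf-/- muscle. The F66 arrays were the lowest of the 18 and the F66;Dysf-/- arrays the highest. It fell by 0.35 in F66 (adjusted p = 0.049, limma) and rose by 0.59 ± 0.111 (SE, adjusted p = 0.000647) in F66;Dysf-/- muscle, and the effects differed by 0.94 ± 0.157 (SE, adjusted p = 0.000688). The decrease lay at the threshold and was lost without any of 13 of the 18 arrays. It was -0.23 without wt replicate 2, which measured 7.62.

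Rsad2 encodes viperin, an enzyme that makes a chain-terminating nucleotide against viral polymerases. It measured 7.59, 7.33 and 7.58 in wt and 7.26, 7.23 and 7.04 in F66 muscle and fell by 0.32 (adjusted p = 0.00986, limma), a call that was lost without F66 replicate 3. In F66;Dysf-/- muscle it measured 7.83, 7.79 and 7.79, above Dysf-/- arrays at 7.73, 7.58 and 7.73, but this difference of 0.13 did not pass. The highest Rsad2 values of all were those of injected wt mice, 7.90, 7.87 and 8.0.

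Of the remaining effectors, Xaf1, a binding partner of an inhibitor of cell death, rose by 0.35 ± 0.0652 (SE, adjusted p = 0.000647) and Isg20l2, which shares its name with the exonuclease Isg20, by 0.49 ± 0.105 (SE, adjusted p = 0.00189). A second, dimmer Xaf1 row stood at -0.48 against Dysf-/-, and with averaged rows the difference turned to -0.07 and was not called. The difference between F66 effects on Xaf1 (0.52) was 0.38 and not called with averaged rows. Isg15, the ubiquitin-like modifier that is among the classic interferon targets, did not differ among the 6 groups (adjusted p = 0.71, limma F test). Its values ran from 4.28 to 4.97 over the 18 arrays, below the median of all rows, and its difference between F66;Dysf-/- and Dysf-/- muscle was 0.00 ± 0.142 (SE). Usp18, the protease that removes ISG15, gave 0.19 in that comparison and 0.23 in F66 against wt, neither of them called. Both were called with median-centered arrays, and the second also when dim genes were left out. All 3 F66;Dysf-/- arrays (7.25, 7.10 and 7.17) exceeded the other 15, though Dysf-/- replicate 3 also rounded to 7.10.

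**Figure D4:**
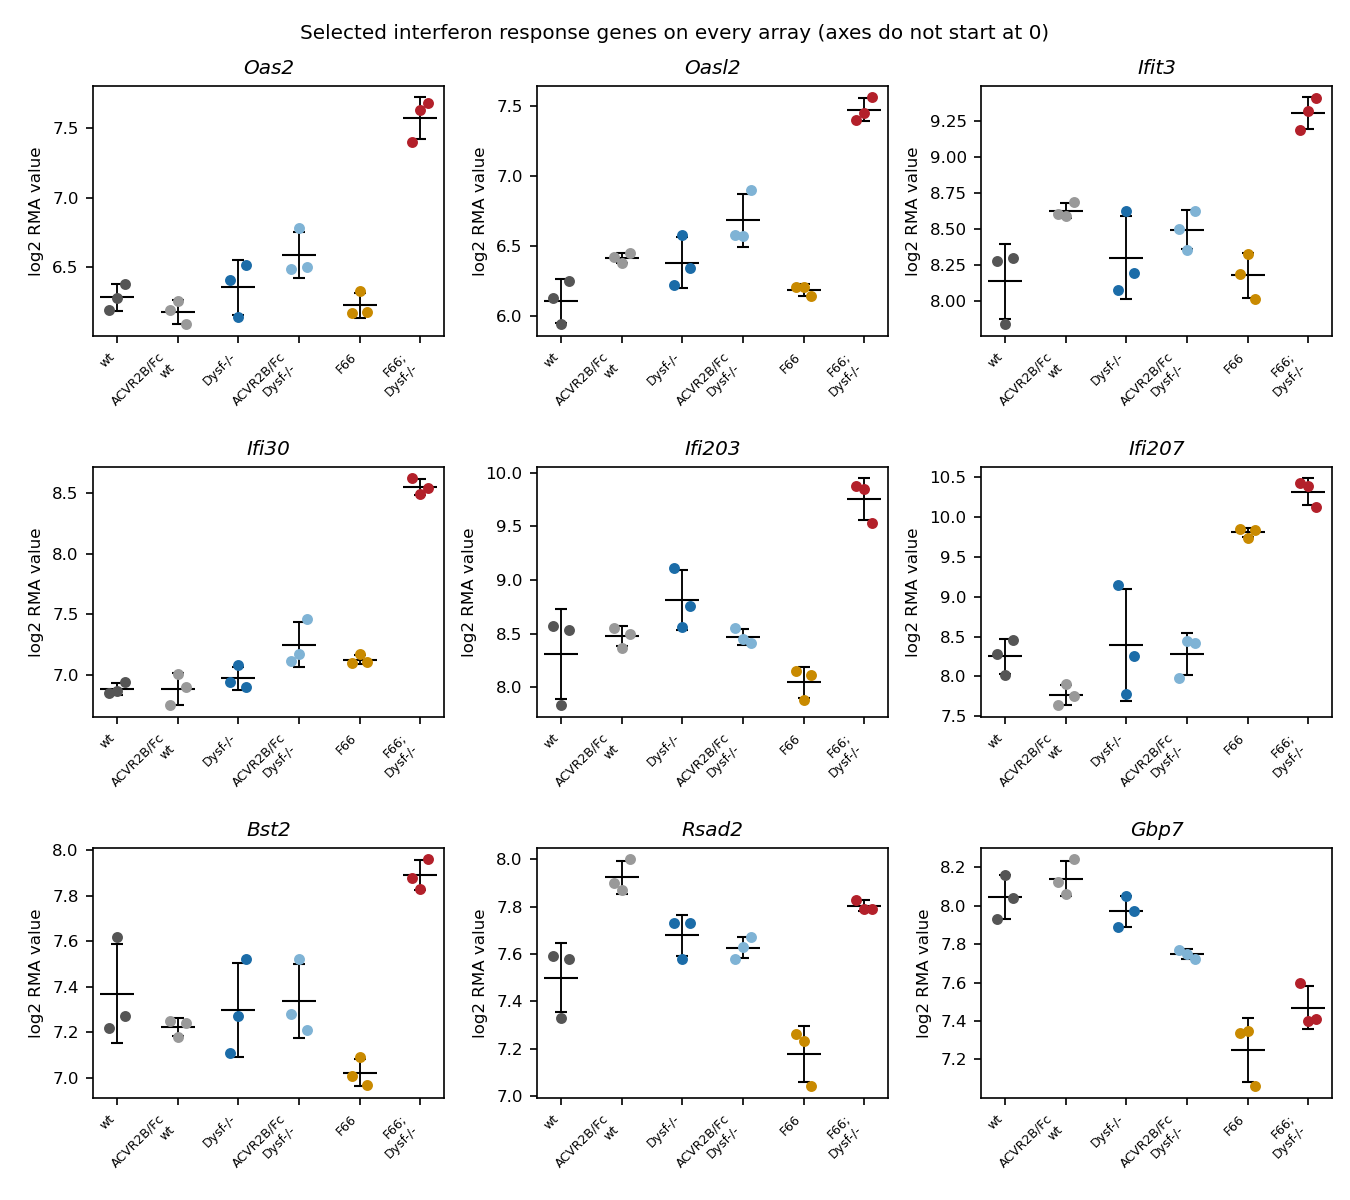
Log2 value on every array (points) with the group mean and SD (bars, n = 3) for 9 of the genes. Oas2, Oasl2, Ifit3, Ifi30 and Ifi203 were highest in F66;Dysf-/- muscle and not called in F66 against wt, Ifi207 was raised in both F66 groups, Bst2 and Rsad2 were lowest in F66, and Gbp7 was low in both F66 groups.

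The IFITM proteins sit in endosomal membranes and hinder virus entry, apart from members such as Ifitm5, which is known from bone. Ifitm3 measured 8.97, 8.58 and 8.79 in wt and 9.08, 9.11 and 9.14 in F66, and 9.12, 9.13 and 9.06 in Dysf-/- and 9.74, 9.73 and 9.67 in F66;Dysf-/- muscle. It rose by 0.33 ± 0.0946 (SE, adjusted p = 0.03) with dysferlin and by 0.61 ± 0.0946 (SE, adjusted p = 0.000122) without it, and the difference between these effects did not pass (0.28 ± 0.134 SE). The first of these calls was lost without any of 5 of the 6 arrays compared, among them wt replicate 2, without which the difference was 0.23.

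Ifitm2 rose by 0.86 ± 0.165 (SE, adjusted p = 0.000791) in F66;Dysf-/- muscle. Ifitm10 rose by nearly the same amount with either genotype, 0.46 ± 0.0732 (SE, adjusted p = 0.000553) in F66 and 0.42 ± 0.0732 (SE, adjusted p = 0.000329) in F66;Dysf-/- muscle. Ifitm6 rose in F66 over wt muscle (0.44 ± 0.136 SE, adjusted p = 0.0431), a call lost without any of 9 of the 18 arrays, and gave an uncalled 0.23 in F66;Dysf-/- against Dysf-/-. Ifitm7, on chromosome 16 apart from the chromosome 7 cluster, was lower in F66;Dysf-/- muscle, at 6.26, 6.28 and 5.97 against 6.68, 6.73 and 6.33 in Dysf-/-. It fell by 0.42 (adjusted p = 0.0129, limma), a call lost without Dysf-/- replicate 1 or 2, without F66;Dysf-/- replicate 3 and with median-centered arrays.

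The guanylate-binding proteins are GTPases, strongly induced by interferon gamma, that attack the compartments of intracellular pathogens. In F66;Dysf-/- over Dysf-/- muscle none of the 6 rose and 1 fell, where 15.2% of all genes rose and 18.4% fell, and their median log2 difference was -0.22. Gbp7 measured 7.93, 8.16 and 8.04 in wt and 7.34, 7.35 and 7.06 in F66 muscle, and 7.89, 8.05 and 7.97 in Dysf-/- and 7.60, 7.40 and 7.41 in F66;Dysf-/- muscle. Its groups did not overlap in either pair.

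Gbp7 fell by 0.79 ± 0.0858 (SE) with the transgene in wt (adjusted p = 1.61e-05, limma) and by 0.50 ± 0.0858 in Dysf-/- muscle (adjusted p = 0.000295). The difference of 0.29 between these effects did not pass. In injected Dysf-/- muscle Gbp7 measured 7.77, 7.75 and 7.72, below Dysf-/- arrays, with a difference of -0.22 that was not called. Gbp2 and Gbp3 were called only against F66 muscle (0.33 and 0.40), and the first call was lost without F66 replicate 1 or F66;Dysf-/- replicate 1, the second without any of 5 of the 6 arrays compared. Gbp5 gave -0.08 in F66 against wt and -0.14 in F66;Dysf-/- against Dysf-/- muscle, neither called. Gbp8 and Gbp11 varied widely within groups, for instance from 4.0 to 5.87 among the F66 arrays for Gbp8, and the 6 genes are similar enough in sequence that their probes may share signal.

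The genes named Ifi hold the strongest responses. Ifi202b, Ifi203, Ifi204, Ifi205, Ifi207 and Ifi208 lie together on mouse chromosome 1 and encode nuclear proteins that bind DNA, and their shared stretches of sequence make the origin of signal on any single row uncertain. Ifi207 measured 8.28, 8.02 and 8.46 in wt and 9.85, 9.74 and 9.83 in F66 muscle, a rise of 1.55 ± 0.243 (SE, adjusted p = 0.000443). In Dysf-/- muscle it measured 9.15, 7.78 and 8.25, with replicate 1 far above the others, and in F66;Dysf-/- muscle 10.43, 10.39 and 10.12, a rise of 1.92 ± 0.243 (SE, adjusted p = 1.64e-05) or 3.77-fold. The transgene effects did not differ between backgrounds by the test (0.36 ± 0.343 SE).

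Ifi203 gave another pattern. It measured 8.57, 7.83 and 8.53 in wt and 8.15, 7.88 and 8.11 in F66 muscle, where the difference of -0.27 was not called, and 9.11, 8.56 and 8.76 in Dysf-/- and 9.88, 9.85 and 9.53 in F66;Dysf-/- muscle. It rose by 0.94 ± 0.173 (SE, adjusted p = 0.000569) over Dysf-/- and was 3.25-fold higher than in F66, and the F66 effects differed by 1.21 ± 0.245 (SE, adjusted p = 0.00309). The 5 further Ifi203 rows were higher in F66;Dysf-/- than in Dysf-/- muscle by 0.67 to 0.98. In 1 of them the difference from F66 muscle was only 0.63, and that between F66 and wt was 0.18, opposite in sign to the row taken.

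Ifi204 and Ifi205 rose with the transgene in both genotypes. Ifi204 went from 8.64, 8.20 and 8.26 in wt to 9.24, 8.69 and 9.01 in F66 muscle and from 9.19, 8.21 and 8.82 in Dysf-/- to 10.11, 10.13 and 9.96 in F66;Dysf-/- muscle, and Ifi205 rose by 0.68 ± 0.204 (SE, adjusted p = 0.0374) and 1.23 ± 0.204 (SE, adjusted p = 0.000225). Both calls in F66 were near the threshold (adjusted p of 0.0491 for Ifi204 by limma) and were lost without several single arrays, 14 of the 18 for Ifi204 and all 6 compared for Ifi205. Ifi208 rose in F66 (0.45 ± 0.129 SE, adjusted p = 0.0311, lost without F66 replicate 1 or 2 or wt replicate 2) and not in F66;Dysf-/- muscle (-0.01), and a second, dim row of it differed in direction there (0.46). Ifi202b was the 1 gene lower in F66;Dysf-/- than in F66 muscle (-0.24 ± 0.0713 SE, adjusted p = 0.0167). Its row was dim, with a mean of 3.64, and its call was lost without F66 replicate 2 or F66;Dysf-/- replicate 2 and with median-centered arrays.

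Ifi30 encodes a lysosomal thiol reductase that unfolds antigens in antigen-presenting cells. It measured 6.85, 6.87 and 6.94 in wt, 7.10, 7.17 and 7.11 in F66, 6.94, 7.08 and 6.90 in Dysf-/- and 8.62, 8.49 and 8.54 in F66;Dysf-/- muscle. The F66;Dysf-/- arrays exceeded every other array by more than 1 log2 unit. It rose by 1.58 ± 0.0852 (SE, adjusted p = 2.05e-09), or 2.98-fold, and its difference between transgene effects, 1.33 ± 0.121 (SE, adjusted p = 3.82e-06), was the largest of the 58 genes. In F66 the arrays also lay above those of wt, by 0.24 (adjusted p = 0.074, limma), a difference called only with median-centered arrays or without replicate 3 of the injected Dysf-/- group. Ifi27 rose in F66 (0.28 ± 0.0717 SE, adjusted p = 0.0174) and in F66;Dysf-/- muscle (0.64 ± 0.0717 SE, adjusted p = 4.86e-06), Ifi27l2a rose in the latter (0.45), and Ifi27l2b and Ifi44l fell there by 0.34 and 0.32. The F66 call of Ifi27 was lost without F66 replicate 2 or wt replicate 2, and the difference between its transgene effects (0.36) was lost without any of 5 arrays. Ifi35 did not differ among the groups (adjusted p = 0.307, limma F test).

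Loss of dysferlin alone changed none of the 58 genes by limma at an adjusted p under 0.05, where 0.489% of all genes were called. At an unadjusted p under 0.05, 9 genes were higher (against 4.16% of all genes) and 1 was lower (5.68%), and the alternative tests named in the study's methods also called none after adjustment. The differences ran from -0.21 to 0.50 with a median of 0.05. Ifi203 had the largest, 0.50 ± 0.173 (SE), and its wt and Dysf-/- arrays overlapped.

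ACVR2B/Fc injection likewise changed none of the genes in either genotype by limma after adjustment, where 0.0296% of all genes were called in wt and 0.0247% in Dysf-/- muscle. At an unadjusted p under 0.05, 14 genes were higher and 3 lower in injected wt muscle (all genes, 4.02% and 3.59%), and 12 were higher and 4 lower in injected Dysf-/- muscle (all genes, 11.2% and 7.61%). The same alternative tests called none in either. In wt muscle the largest positive differences were those of Ifit3, Rsad2 and Gbp3. Ifit3 went from 8.28, 7.84 and 8.30 to 8.61, 8.59 and 8.69 without overlap (0.49 ± 0.14 SE, adjusted p = 0.307), and Rsad2 from 7.59, 7.33 and 7.58 to 7.90, 7.87 and 8.0 (0.42 ± 0.0759 SE, adjusted p = 0.083). The largest negative ones were those of Ifi205 (-0.55) and Ifi207 (-0.48). Rsad2 was called in this comparison when arrays were quantile normalized again or dim genes were left out.

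In Dysf-/- muscle the injection gave 0.30 for Oasl2, 0.31 for Irf5 and 0.27 for Ifi30, and 0.19 and -0.05 for Ifit3 and Rsad2. The largest negative differences were those of Gbp8 (-0.58) and Ifi203 (-0.34). In the wt comparison, wt replicate 2 was the lowest of the 3 wt arrays in 25 of the 58 genes and the highest in 20, and it was the lowest of all 18 arrays in 13. The test of the difference between the injection effects in Dysf-/- and wt muscle called none of the 58 genes, and 0.00494% of all genes. At an unadjusted p under 0.05 it gave 6 genes higher and 4 lower (all genes, 4.49% and 3.26%).

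The rest of the interferon pathway was followed through 3 lists. Of 17 measured ligands, receptors and signaling proteins, 8 rose and 2 fell in F66;Dysf-/- over Dysf-/- muscle. Over all genes, 15.2% rose and 18.4% fell. The measured interferon genes of this list were not among those that rose, with values of -0.25 for Ifna1, -0.38 for Ifna4 and 0.18 for Ifnb1. Interferon genes outside the list were not examined. Ifng fell by 0.32 (adjusted p = 0.0328, limma), from 5.35, 5.50 and 5.31 to 5.06, 5.31 and 4.83. The median of all rows was 5.37, and Ifna4 was dim, between 2.80 and 3.80 on these arrays. The Ifng call was not checked by median centering or by leaving out arrays. Whether interferon RNA was present at levels that these rows cannot resolve was not tested. The interferon receptors rose, Ifnar2 by 1.06 ± 0.104 (SE, adjusted p = 1.2e-06), Ifnar1 by 0.56, Ifngr1 by 0.51 and Ifngr2 by 0.30. Ptpn6, a phosphatase of blood cells that damps JAK signaling, rose by 1.08, and Il10rb, a receptor chain shared with interferon lambda, by 0.73, whereas the kinase Jak2 fell by 0.68. In F66 over wt muscle 4 of the 17 rose, Ifnar2, Ifngr1, Jak1 and Tyk2, and none fell. The shares of all genes were 8.11% and 5.5%.

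Of 16 measured genes of nucleic acid sensing, 14 rose and none fell in F66;Dysf-/- over Dysf-/- muscle, with a median log2 difference of 0.59. Over all genes, 15.2% rose and 18.4% fell. Tlr7, the endosomal sensor of single-stranded RNA, rose by 2.02 ± 0.0924 (SE, adjusted p = 5.13e-10), Aim2, an inflammasome sensor of DNA, by 1.72 ± 0.197 (SE, adjusted p = 5.82e-06), and Sting1, the adaptor of the DNA sensor cGAS, by 1.60 ± 0.0872 (SE, adjusted p = 2.27e-09). Tlr7 and Sting1 rose in F66 over wt muscle too (1.13 and 1.47), and the effect on Sting1 was not shown to differ between genotypes (0.12, adjusted p = 0.565, limma). Dhx58 and Ddx58, which encode the RNA sensors LGP2 and RIG-I, rose without dysferlin (0.80 and 0.48) and gave -0.03 and -0.03 with it, and these effects differed (by 0.83, adjusted p = 2.08e-05, and 0.51, adjusted p = 0.00107, limma).

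Of 33 further interferon targets, 26 rose and none fell in F66;Dysf-/- over Dysf-/- muscle, with a median of 0.40. The shares of all genes were 15.2% and 18.4%. In F66 over wt muscle 4 rose and 3 fell, with a median of -0.13, where 8.11% of all genes rose and 5.5% fell. The transgene effect, taken with its sign, was higher without dysferlin in 26 of the 33, against 8.54% of all genes. Cxcl9, an interferon gamma-induced chemokine for T cells, rose by 1.11 ± 0.0774 (SE, adjusted p = 2.52e-08) without dysferlin and fell by 0.28 with it (adjusted p = 0.0255, limma), and the effects differed by 1.39. Slfn2, which keeps immune cells quiescent, rose by 1.30 ± 0.0815 (SE, adjusted p = 8.31e-09), the ubiquitin ligase Rnf213 by 0.75 ± 0.0563 (SE, adjusted p = 5.97e-08) and Epsti1 by 0.80 ± 0.0602 (SE, adjusted p = 6.19e-08). Ly6e and the immunoproteasome subunit Psmb8 fell in F66 by 0.32 and 0.18 and rose in F66;Dysf-/- muscle by 0.40 and 0.28. Among these genes Slfn2 was also called in Dysf-/- over wt muscle (0.40 ± 0.0815 SE, adjusted p = 0.0413) and Cxcl9 in injected over uninjected wt muscle (0.50 ± 0.0774 SE, adjusted p = 0.0325).

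Markers of other cell types moved with these genes. The mean level of 10 macrophage and monocyte markers lay between 5.96 and 6.03 in wt, 6.49 and 6.75 in Dysf-/-, 6.80 and 7.07 in F66 and 8.37 and 8.48 in F66;Dysf-/- muscle. All 10 rose in F66;Dysf-/- over Dysf-/- muscle, 7 rose in F66 over wt and 4 in Dysf-/- over wt. Of all genes, 15.2% rose in the first of these and 8.11% in the second. In the third, 0.489% were called in either direction. Adgre1, a surface receptor typical of macrophages, rose by 2.86 ± 0.122 (SE, adjusted p = 3.36e-10), 1.44 and 0.90 in these comparisons, and Cd68 by 3.12, 2.03 and 1.32. In F66;Dysf-/- over F66 muscle 9 rose and Cd163 fell, where 14.5% of all genes were higher and 20.3% lower. The level of the list lay between 6.03 and 6.32 in injected wt and 6.67 and 7.06 in injected Dysf-/- muscle, where none of its genes was called. The macrophage marker level was thus higher in F66 and in Dysf-/- muscle than in wt, and below that of F66;Dysf-/- muscle. The part of macrophage number in the interferon gene values was not tested.

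Other immune lists were lower and flatter. Of 6 dendritic cell markers Xcr1 and Clec9a rose in F66;Dysf-/- over Dysf-/- muscle (0.52 and 0.51), and the level of the list went from 5.54 and 5.74 to 5.83 and 6.00. T and NK cell markers stayed between 5.11 and 5.39 on all 18 arrays, with Cd4 higher (0.36), Cd8a lower (-0.24) and Cd3e at 0.09. B cell markers lay between 5.24 and 5.69 and none of 4 was called in F66;Dysf-/- over Dysf-/- muscle, while 1 was higher than in F66. Neutrophil markers lay between 4.66 and 4.91, with S100a8 at -0.26, Ly6g lower (-0.24) and Mmp8 higher (0.46) in F66;Dysf-/- over Dysf-/- muscle. Mmp8 measured 4.77, 4.74 and 4.80 there, above the other 15 arrays. Fibroblast markers rose with the transgene in both genotypes, 5 of 5 each, and endothelial markers fell, 4 of 5 in F66 and 3 of 5 in F66;Dysf-/- muscle. Of all genes, 8.11% rose and 5.5% fell in F66, and 15.2% and 18.4% in F66;Dysf-/- muscle. Pdgfra gave 0.95 and 0.72 and Pecam1 -0.07 and -0.12 in these comparisons, and the muscle actin Acta1 0.07 and -0.10. Of 5 muscle fiber markers, 0 were called in F66 over wt muscle, and 2 were lower in F66;Dysf-/- over Dysf-/- muscle (18.4% of all genes). The part of these cells in the interferon gene values was not tested.

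**Figure D5:**
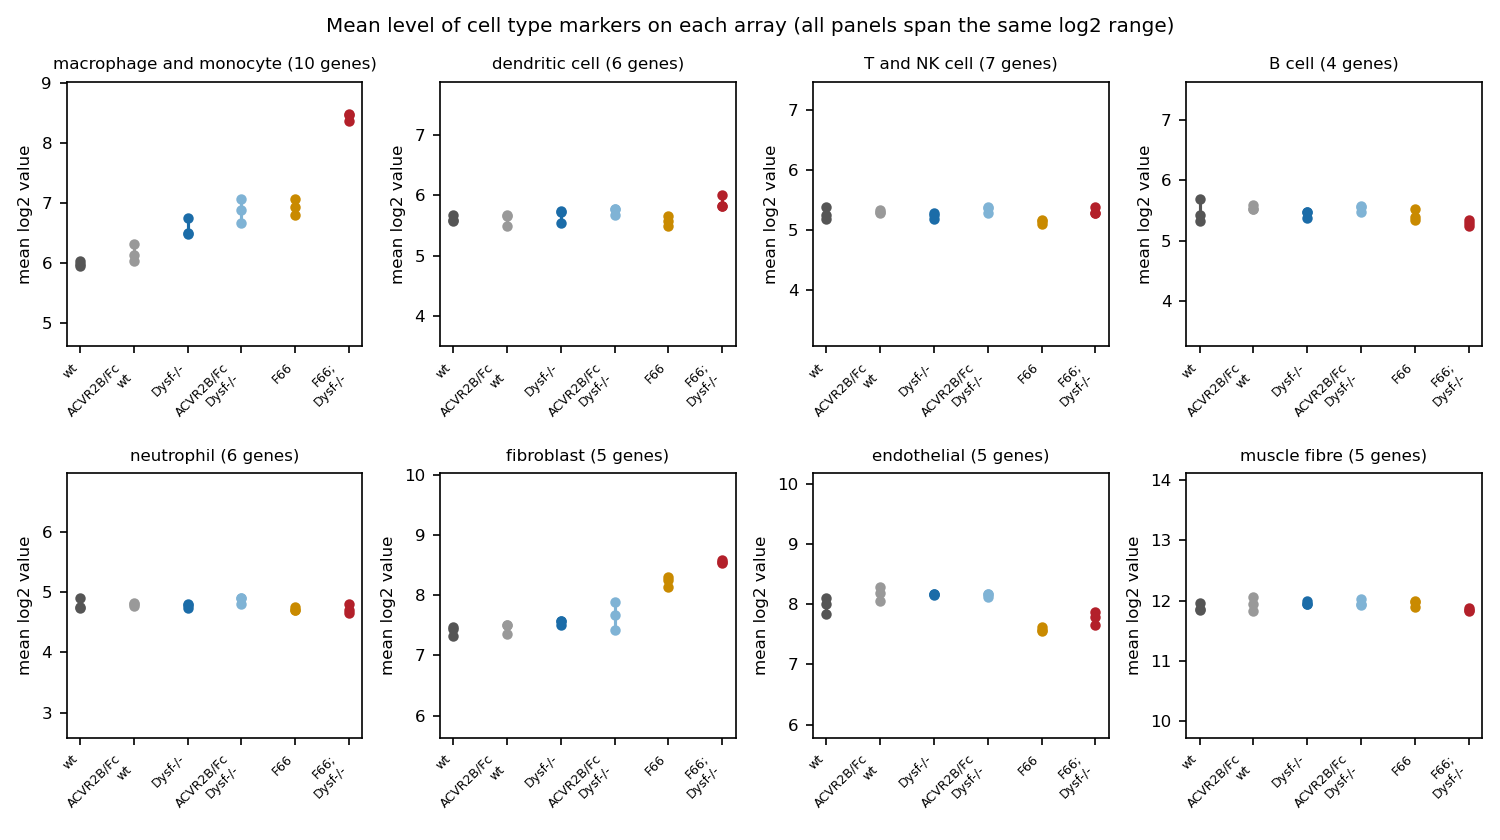
Mean log2 value of the measured markers of 8 cell types on each array (points, 3 per group, joined by their range), with all panels spanning the same log2 range. The macrophage and monocyte level is lowest in wt and highest in F66;Dysf-/- muscle (8.37 and 8.48), and the muscle fiber level is flat.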

How the data were processed

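RNA from 18 quadriceps samples was hybridized to exon arrays by the authors, and the deposited values are log2 intensities per probe-set row. The submitters' processing notes name RMA, Partek and mouse build mm9 without versions. RMA compresses differences of dim genes. Of 115830 rows, 27839 were annotated and 25539 carried 1 symbol, and the row with the highest mean represented each of 20259 genes. No count or depth underlies the values, so the number of arrays limits the precision. Group means were fitted over all 18 arrays (limma 3.58.1, R 4.3.3; figures with matplotlib 3.10.9, Python 3.11.15), with Benjamini-Hochberg adjustment over all genes and a threshold of 0.05. The p-values cover the spread of 3 biological replicates per group.

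Genes were named by rule: the 10 largest differences among genes called in each comparison whose groups did not overlap, the 4 smallest F-test p-values in each role or list, all Stat and Irf genes, the highest and lowest mean, the first marker of each list, and genes whose rows disagreed. Other genes were named after their values were seen. The members and lists were chosen with earlier results of these data known. Alternatives were median centering, repeated quantile normalization, other row and dim-gene rules, trend and robust variance, a replicate block, the compared groups alone, the methods' t-test (p under 0.01 and over 2-fold, or adjusted) and leaving out each array. Gene numbers of 57 members matched the reference table, and Isg15 kept its annotated name. The labels do not say what, if anything, same-numbered arrays shared beyond the number.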

Additional observations from a re-analysis of the deposited data

Results flagged for a closer look

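The effect of the F66 transgene differed between Dysf-/- and wt muscle, by limma's test of the difference itself, in 24 of the 58 genes. Over all genes, 8.54% were called with a higher effect in Dysf-/- muscle and 7.93% with a lower one. As the log2 effect in Dysf-/- minus that in wt, the values were 1.33 for Ifi30, 1.28 for Oas2, 1.21 for Ifi203, 1.01 for Oasl2, 0.97 for Ifit3, 0.94 for Bst2 and 0.92 for Mx1. Among the transcription factors they were 0.76 for Irf7, 0.62 for Stat2, 0.54 for Stat4, 0.49 for Irf5, 0.48 for Irf9, 0.32 for Irf8 and 0.29 for Irf1. The Stat4 row was dim. Smaller values among effectors and sensors were 0.63 for Ifit1, 0.57 for Oas1b, 0.52 for Xaf1, 0.48 for Mx2, 0.47 for Isg20l2, 0.45 for Rsad2 and 0.45 for Oasl1. The remaining genes were Ifi27 at 0.36, Ifi27l2a at 0.33 and Ifitm7, the 1 gene with a negative value, at -0.55. With the rows of a gene averaged, the differences of Irf7 (0.22) and Xaf1 (0.38) were not called. The part of macrophage markers, which also rose most in F66;Dysf-/- muscle, was not tested.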

How the results depend on the processing

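Counts of the 58 genes called that moved by more than 1.5 times under another setting were these. In F66 against wt muscle, 3 genes were called with all rows tested, 5 with the adjusted t-test, 6 with the compared groups alone and 1 with the t-test at over 2-fold, against 15. In F66;Dysf-/- muscle the t-test at over 2-fold called 5 against Dysf-/- and 6 against F66. The difference between the F66 effects was called in 12 genes with all rows tested and in 4 with the t-test at over 2-fold. In injected against uninjected wt muscle, repeated quantile normalization called 1 gene and leaving out dim genes called 1. Leaving out 1 array of the groups compared at a time gave 8 to 14 genes for F66 against wt, 33 to 37 for F66;Dysf-/- against Dysf-/-, 30 to 32 against F66, 19 to 23 for the difference between F66 effects, 39 to 46 across the 6 groups and 0 in the other comparisons. Over all 18 arrays the highest counts were 17, 38, 36 and 25 in the first 4 of these. Averaged rows ended the calls of Irf7 and Xaf1 in both F66;Dysf-/- comparisons and in the difference between F66 effects, and turned Xaf1 against Dysf-/- from 0.35 to -0.07 and the uncalled Ifi208 from -0.01 to 0.23.

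The arrays were not treated as paired by replicate number. Deviations of same-numbered arrays correlated between -0.07 and 0.29, with 0.21 and 0.29 for replicates 1 and 2 of injected against uninjected wt. Arrays with different numbers were not compared in this way. With the replicate number as a block, 15 genes were called in F66 against wt, 37 in F66;Dysf-/- against Dysf-/-, 35 against F66, 23 for the difference between F66 effects, 45 across the groups and 0 elsewhere. With 3 arrays per group, small differences of dim genes such as Isg15 could not be resolved.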
